A study of Canis lupus familiaris with 12 samples.

Results

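Mucosal and homeostatic CC chemokines are small secreted proteins that guide lymphocytes and other leukocytes to barrier surfaces and lymphoid organs. The genes described here are CCL17, CCL20, CCL21, CCL25, CCL26, CCL27 and CCL28 of the dog. They were chosen by name, as the array probes whose accession is a RefSeq transcript of 1 of these genes, and bright and dim probes were both taken. Each gene had 1 probe, so there were 7 probes among the 43603 gene probes of the array, of which 1484 could be given a symbol, for 944 genes.

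The cells were MDCK (Madin-Darby canine kidney), an epithelial line of dog kidney tubule, and no allele, gene construct or drug was involved. All cultures had been moved to a medium without serum at pH 7.4 for 24 h. One group then spent 24 h at pH 7.0, which was reached with less bicarbonate in the medium, and the control group spent 24 h at pH 7.4. The effects of acidity and of low bicarbonate cannot be told apart in this design. The study asked whether acid stress alters proinflammatory cytokine genes. There were 3 biological replicates, each with 1 RNA from pH 7.0 and 1 from pH 7.4 extracted on a date of its own, and every RNA, of 6 in all, went onto 2 arrays in a single colour. Replicates are extractions from 1 cell line, so p-values measure only the spread between these extractions.

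A chemokine acts through a receptor on the cell it attracts. CCL28 is made by epithelia of mucosal surfaces and exocrine glands and draws antibody-secreting cells through CCR10 and eosinophils through CCR3. CCL27, the skin chemokine, shares CCR10. CCL20 draws dendritic cells and lymphocytes that carry CCR6, and CCL17 draws T cells that carry CCR4. CCL21 guides cells with CCR7 into lymph nodes, CCL25 guides T cells with CCR9 to thymus and small intestine, and CCL26 attracts eosinophils through CCR3.

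The 4 arrays of each biological replicate shared a slide and a scan, so slide and biological replicate cannot be told apart. The slide of biological replicate 2 stood apart: 49.4% to 54.1% of gene probes were well above background on its arrays, against 62.1% to 70.4% on the others. The lowest signal that was called well above background was 16.0 to 27.2 there and 6.39 to 9.35 on the other slides. Of the tubule epithelial markers, 3 of 10 had a named probe: OCLN and TJP1 were well above background on 12 of 12 arrays and CLDN2 on up to 8. Of the leukocyte markers, 3 of 10 had one, and CD8A, CD4 and CD163 were above background on up to 7, 5 and 0 arrays. Of fibroblast and endothelial markers, 4 of 5 and 2 of 5 had one. By the best probe of each gene, COL1A1, COL1A2 and VWF were detected on all 12 arrays. PDGFRB, KDR and DCN were detected on up to 10, 3 and 1. The fitted log2 changes of the tubule markers CLDN2, OCLN and TJP1 were 1.15, 0.26 and -0.10. Those of the tested markers of other cell types were -0.01 for CD8A, 0.43 for COL1A1, -0.21 for COL1A2, -0.01 for PDGFRB and 0.17 for VWF. The part of these markers in the chemokine values was not tested.

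In these cells 4 of the 7 chemokines could be measured, namely CCL17, CCL20, CCL27 and CCL28. By the processed signal CCL28 was 2.60-fold higher at pH 7.0, although 2 of its 6 control arrays were not well above background. This size changed with the processing. Under a normexp correction with outlying local backgrounds replaced, the log2 change of CCL28 was 0.526. That correction also added an offset of 50, beside CCL28 processed signals of 12.5 to 61.6. An offset of that size shrinks the log2 change of a dim probe. The parts of offset and background in 0.526 were not separated. CCL27, with signals of 914 to 2830, was at 0.53 there. With local backgrounds as given CCL28 was at -0.097. In that setting the 2 control arrays of biological replicate 2 read CCL21, CCL25 and CCL26 at -1.07 to -0.60. The other arrays read them at -4.07 to -2.72. CCL27 was 1.47-fold higher, by less than the fit could resolve. CCL20 and CCL17 differed in direction between biological replicates. The negative change of CCL17, -0.12 in biological replicate 1, was smaller than its largest gap between duplicate arrays, 0.84. CCL21, CCL25 and CCL26 were not well above background on any of the 12 arrays.

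The test was a limma fit over all 27136 probes whose signal cleared background on 6 or more of the 12 arrays, with the biological replicate as a block. At an adjusted p under 0.05, limma called 0 of the 4 tested chemokines and 0% of all tested probes. At an unadjusted p under 0.05 there was 1 of the 4, CCL28, beside 12.2% of all tested probes. All 4 estimates were above 0, as were 51.3% of those on the array, and 2 of the 4, CCL28 and CCL27, were higher in all 3 biological replicates, as were 18.0% of tested probes. The median change of the 4 was 0.51 on the log2 scale, and that of all tested probes was 0.01. By biological replicate, the median of the 4 was 0.19, 1.51 and 0.24, and the medians of all tested probes were -0.02, 0.02 and 0.05. The second replicate thus had the larger median for these genes, while the median of all tested probes there was 0.02. The spread of changes over all tested probes was not compared between biological replicates.

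**Figure D1:**
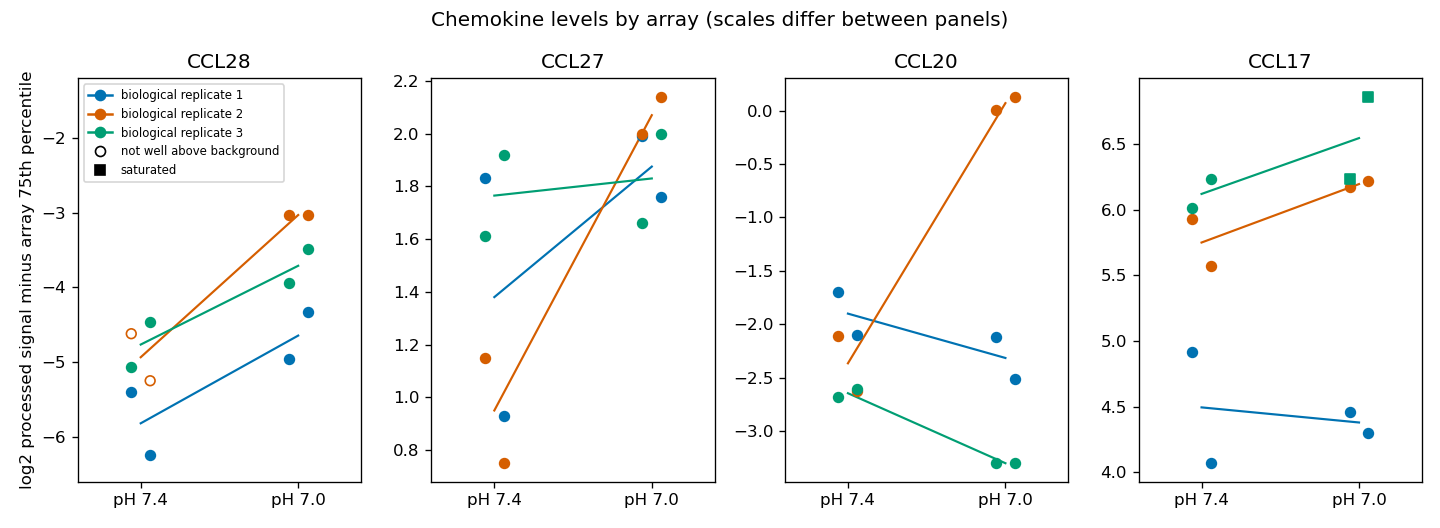
Level of each measurable chemokine on each array, as log2 signal relative to that array's 75th percentile, at pH 7.4 and pH 7.0, with 1 point per array and lines joining the means of the 2 arrays of each RNA. The CCL28 lines rise in all 3 biological replicates, by 1.18, 1.91 and 1.05, while the CCL20 lines go apart, at -0.42, 2.43 and -0.65.

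CCL28, the chemokine of mucosal epithelia, was dim. Its processed signal at pH 7.0 had a lowest value of 22.9, a median of 48.6 and a highest value of 61.6 over 6 arrays. At pH 7.4 the lowest was 12.5, the median 18.7 and the highest 23.3. The 2 ranges of raw processed signal met only at their ends, since 1 pH 7.0 array lay inside the control range. The levels below are log2 values relative to the array's 75th percentile. The RNAs from pH 7.0 stood at -4.65, -3.03 and -3.71 in biological replicates 1 to 3. Those from pH 7.4 stood at -5.82, -4.94 and -4.76. Every pH 7.0 RNA was above every pH 7.4 RNA, which held in this direction for 4.48% of tested probes, although single arrays of the groups overlapped.

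Within the biological replicates CCL28 was higher at pH 7.0 by 1.18, 1.91 and 1.05 on the log2 scale. Duplicate arrays of the same RNA differed by up to 0.84, less than any of these. The fitted log2 change was 1.38 ± 0.25 (SE, n = 3 pairs of RNAs), with a 95% interval of 0.82 to 1.94 and a limma adjusted p of 0.102. The unadjusted p was 0.000281, the 75th smallest of the 27136. A positive change of that size or more was seen in 99 tested probes, CCL28 included, or 0.365% of them. CCL28 thus missed the adjusted threshold, while it lay near the top of the array by either measure.

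The spots behind this value were close to background. Of the 6 control arrays, 4 called CCL28 well above background, and those without a call were both from biological replicate 2. There its signals were 16.7 and 20.1, where the lowest signals called above background on the same arrays were 16.0 and 25.2. On that slide the median pixel signal of the CCL28 spot was 163 to 166.5 at pH 7.0 and 128 to 133.5 at pH 7.4. On the slide of biological replicate 3 it was 89 to 94 against 56 to 62. On the slide of biological replicate 1 it was 60 to 80 against 51 to 57. The pH 7.0 spots were thus brighter on all 3 slides before any subtraction or scaling, and the local background around them was 22.5 to 40 at pH 7.0 and 22 to 47.5 at pH 7.4. In biological replicate 1, array 1 read 60 over a local background of 40 at pH 7.0, and 57 over 37 at pH 7.4. Signal minus local background was thus 20 on both of those arrays. On array 2 of each group it was 43 at pH 7.0 and 5 at pH 7.4. Without biological replicate 2 the log2 change was 1.11, and without biological replicate 1 it was 1.48 and passed (limma adjusted p = 0.0238). Over all alternatives run for it the adjusted p lay between 0.0156 and 1. Both normexp values given above used an offset of 50, and the replaced local backgrounds were set to the array's median.

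**Figure D2:**
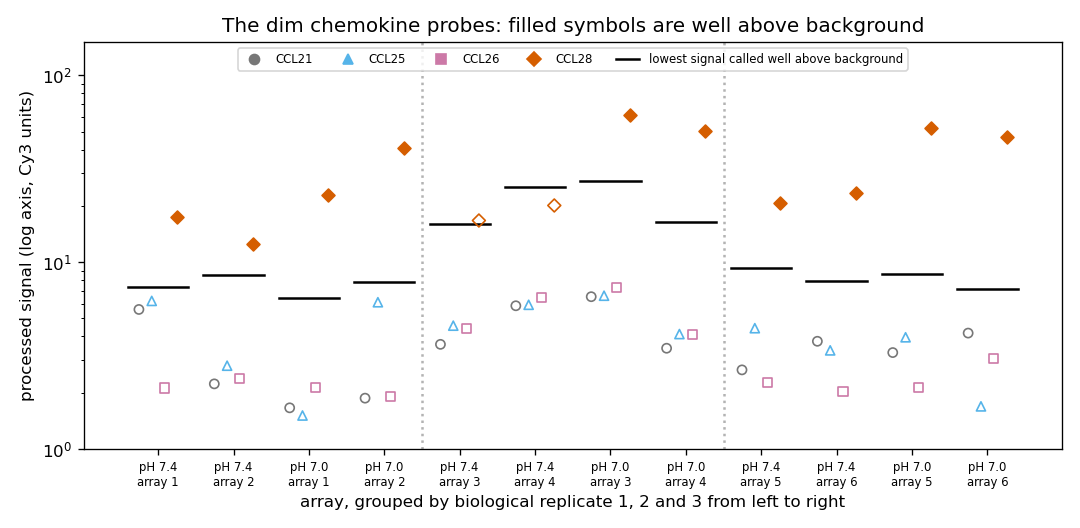
Processed signal of the 4 dimmest chemokine probes on each array (log axis), by biological replicate. Bars mark the lowest signal called well above background on that array and filled symbols are well above background: CCL28 on 10 of 12 arrays, and CCL21, CCL25 and CCL26 on 0.

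CCL27, known from keratinocytes of the skin, gave a bright probe in this kidney line, well above background on all 12 arrays. Its processed signal ran from 1810 to 2830 with a median of 2320 at pH 7.0, and from 914 to 2620 with a median of 1870 at pH 7.4. Relative to the 75th percentile, the log2 levels of the pH 7.0 RNAs were 1.88, 2.07 and 1.83. The pH 7.4 RNAs were at 1.38, 0.95 and 1.77. The RNAs of the groups did not overlap, which held in this direction for 4.48% of tested probes. The gap between the lowest at pH 7.0 and the highest at pH 7.4 was narrow, and single arrays overlapped. The spread over pH 7.0 RNAs, an SD of 0.13 on the log2 scale (n = 3), was smaller than that at pH 7.4, 0.41 (n = 3), and that difference in spread was not tested.

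The log2 changes of CCL27 were 0.50, 1.12 and 0.06 in the biological replicates. The duplicate arrays of 1 RNA, pH 7.4 in biological replicate 1, were 1.83 and 0.93, a gap of 0.90 that exceeds the change in that replicate. The fitted log2 change was 0.56 ± 0.26 (SE, n = 3 pairs), with an interval of -0.02 to 1.14 and a limma adjusted p of 0.420. The interval covers fold changes from 0.986 to 2.20. Without biological replicate 2 the log2 change was 0.278.

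CCL20, a chemokine that epithelia make under inflammatory stimulation, did not move the same way in the 3 experiments. The log2 levels of the pH 7.0 RNAs were -2.32, 0.07 and -3.30, and those of the pH 7.4 RNAs were -1.90, -2.36 and -2.64. The acid RNA of biological replicate 2 was the highest of all 6 and that of biological replicate 3 the lowest, so the pH 7.0 group enclosed the control group. In processed signal, both acid arrays of replicate 2 read 506 and 449, and the controls on that slide read 95.3 and 125.

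The log2 changes of CCL20 by biological replicate were -0.42, 2.43 and -0.65. No pair of duplicate arrays differed by more than 0.50. That is less than the changes of 2.43 and -0.65 in size, but more than the -0.42 of biological replicate 1. The fitted log2 change was 0.45 ± 0.50 (SE, n = 3 pairs), with an interval of -0.67 to 1.58 (limma adjusted p = 0.773). Without biological replicate 2 it turned to -0.535. The same slide had the lower share of probes above background given above, and the part of that in the CCL20 value was not tested. All 12 CCL20 spots were well above background.

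CCL17, the ligand of CCR4 on T cells, was the reverse of CCL28 in brightness, with a probe near the top of the scanner's range. Its processed signal was 15600 to 61200 at pH 7.0, with a median of 33300, and 15900 to 44700 at pH 7.4, with a median of 30700. Both pH 7.0 arrays of biological replicate 3 were saturated, so that those 2 readings, 60600 and 61200, are lower limits. The log2 levels of the pH 7.0 RNAs were 4.38, 6.19 and 6.55 and those of the pH 7.4 RNAs were 4.50, 5.75 and 6.12. Biological replicates lay further apart than the media did: replicate 1 was the lowest in both groups.

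The log2 changes of CCL17 were -0.12, 0.44 and 0.43, the third of them measured on saturated arrays, and duplicate arrays differed by up to 0.84. The fitted log2 change was 0.25 ± 0.23 (SE, n = 3 pairs), with an interval of -0.27 to 0.77 (limma adjusted p = 0.720).

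The remaining chemokines act in lymph nodes (CCL21), gut and thymus (CCL25) or on eosinophils (CCL26), and for each of them 0 of 12 arrays gave a signal well above background. Their processed signals ran from 1.51 to 7.33 over all arrays. CCL21 had a median of 3.37 at pH 7.0 and 3.70 at pH 7.4, CCL25 of 4.04 and 4.50, and CCL26 of 2.60 and 2.33. On each array they lay under the lowest signal that was called well above background. No fold change is given for them, since any difference was not detectable at this signal. Their raw spot brightness followed the slide: the median pixel signal was 76 to 109 on the slide of biological replicate 2, and 33 to 42 and 30.5 to 37 on the slides of biological replicates 1 and 3.

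In the RefSeq gene table for the dog assembly UU_Cfam_GSD_1.0, several of these genes sit beside other chemokine genes. CCL27 and CCL21 have 2 protein-coding genes between them, and CCL19 lies next to CCL21. CCL27 was bright, whereas CCL21 was above background on no array and CCL19, which shares CCR7 with CCL21, on 1 of 12. CCL26 is the neighbour of CCL24, another eosinophil attractant, which was above background on 2 of 12 arrays. CCL17 lies within 5 protein-coding genes of CX3CL1 and CCL22. CCL20, CCL25 and CCL28 have no gene named as a chemokine within 5 protein-coding genes.

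Receptors for these ligands were hardly visible. Of 9 receptor genes fixed for the comparison, 2 had a named probe and 0 passed the filter. For CCR4, the receptor of CCL17, 3 of 6 acid arrays and 2 of 6 control arrays had a signal well above background. For CCR3, the receptor of CCL26, it was 0 and 1. The others, CCR6, CCR7, CCR9 and CCR10 among them, were not analysed here.

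Among other CC chemokines, 10 of 15 listed genes had a named probe and 5 were tested. All 5 estimates were above 0, with a median of 1.64, and 4 had an unadjusted limma p under 0.05, beside 6.48% of all tested probes in that direction. None of the 5 passed an adjusted p of 0.05. The lowest p belonged to the monocyte attractants CCL8 (1.90 ± 0.31, adjusted p = 0.0754) and CCL2 (1.64 ± 0.35, adjusted p = 0.136) and to CCL4 (1.37 ± 0.29, adjusted p = 0.128). These log2 changes are set beside those of the mucosal and homeostatic members in the plot of changes by biological replicate. CCL5, which draws T cells, had log2 changes of 0.75, 2.31 and -0.62, with its highest value in biological replicate 2 and a negative one in biological replicate 3, as CCL20 did. CCL5 cleared background on 6 acid and 4 control arrays, and it was named here after its values had been looked at.

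**Figure D3:**
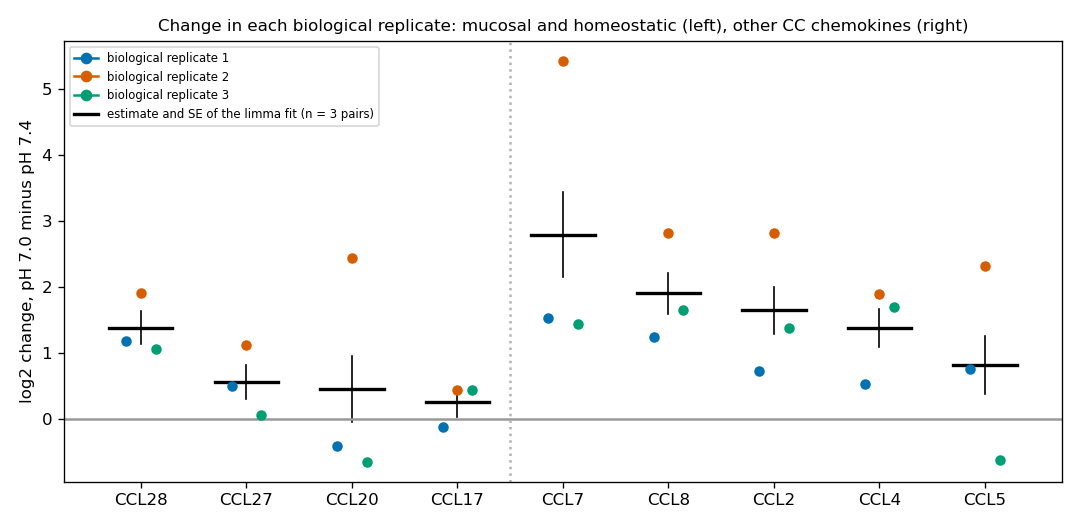
Log2 change, pH 7.0 minus pH 7.4, in each of the 3 biological replicates for the 4 measurable mucosal and homeostatic chemokines and 5 other CC chemokines. Bars are the limma estimates and vertical lines their SE (n = 3 pairs). The highest point is biological replicate 2 for every gene shown but CCL17, whose 0.44 there cannot be ranked against 0.43 in biological replicate 3, where both pH 7.0 arrays were saturated.

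Other products of mucosal epithelia showed both directions. Of 16 listed defence genes, 8 had a named probe and 5 were tested, 2 with an estimate above 0 and 3 below, with a median log2 change of -0.26. At an unadjusted limma p under 0.05 there was 1 on each side, where 6.48% of all tested probes were higher and 5.77% lower. SLPI, a secreted protease inhibitor, stood at 1.15 ± 0.29 (adjusted p = 0.181) on its brighter probe and at 1.10 ± 0.27 on the other, and TFF1, a trefoil peptide of mucus, at -1.32 ± 0.43 (adjusted p = 0.267). CAMP, the cathelicidin precursor, was at -0.26 ± 0.25 (adjusted p = 0.727) and cleared background on 4 acid and 4 control arrays.

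The level of each measurable chemokine over the 6 RNAs was compared with that of 597 other named genes by Pearson's r, as a description. These points share slides as well as treatment. The 95th percentile of r over the genes compared was 0.814 for CCL28, 0.733 for CCL27, 0.727 for CCL20 and 0.858 for CCL17. The genes named were picked by r over these same RNAs, so likeness in their changes follows in part from that choice. CCL28 was most like ZP2, an egg coat glycoprotein (r = 0.993), CCL8 (r = 0.988) and ARG2, the mitochondrial arginase (r = 0.975). The log2 changes of CCL8 by biological replicate were 1.24, 2.82 and 1.64, in the same direction each time as those of CCL28.

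CCL27 was most like 3 genes that interferon induces: PSMB8, an immunoproteasome subunit (r = 0.960), and the oligoadenylate synthetases OAS1 (r = 0.929) and OAS2 (r = 0.920). PSMB8 changed by 0.69, 1.16 and 0.19 on the log2 scale in the biological replicates, where CCL27 gave 0.50, 1.12 and 0.06. OAS1 gave 1.29, 1.42 and 0.34, and OAS2 gave 1.08, 1.67 and -0.14. In each of these the change was largest in biological replicate 2 and smallest in biological replicate 3, which follows in part from picking them by r.

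CCL20 was most like SRP68, a part of the signal recognition particle (r = 0.953), the gene LOC477518 (r = 0.915) and HTR2B, a serotonin receptor (r = 0.904). HTR2B changed by -0.65, 1.14 and -1.45, and 6 of 12 arrays gave it a signal well above background. CCL17 was most like SLC23A2, an ascorbate transporter (r = 0.985), SOD1, the cytosolic superoxide dismutase (r = 0.981), and LEP, leptin (r = 0.974). The fitted log2 changes of these 3 were 0.10, 0.05 and 0.01, so their likeness to CCL17 lay in differences between biological replicates and not in a difference between the media.

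**Figure D4:**
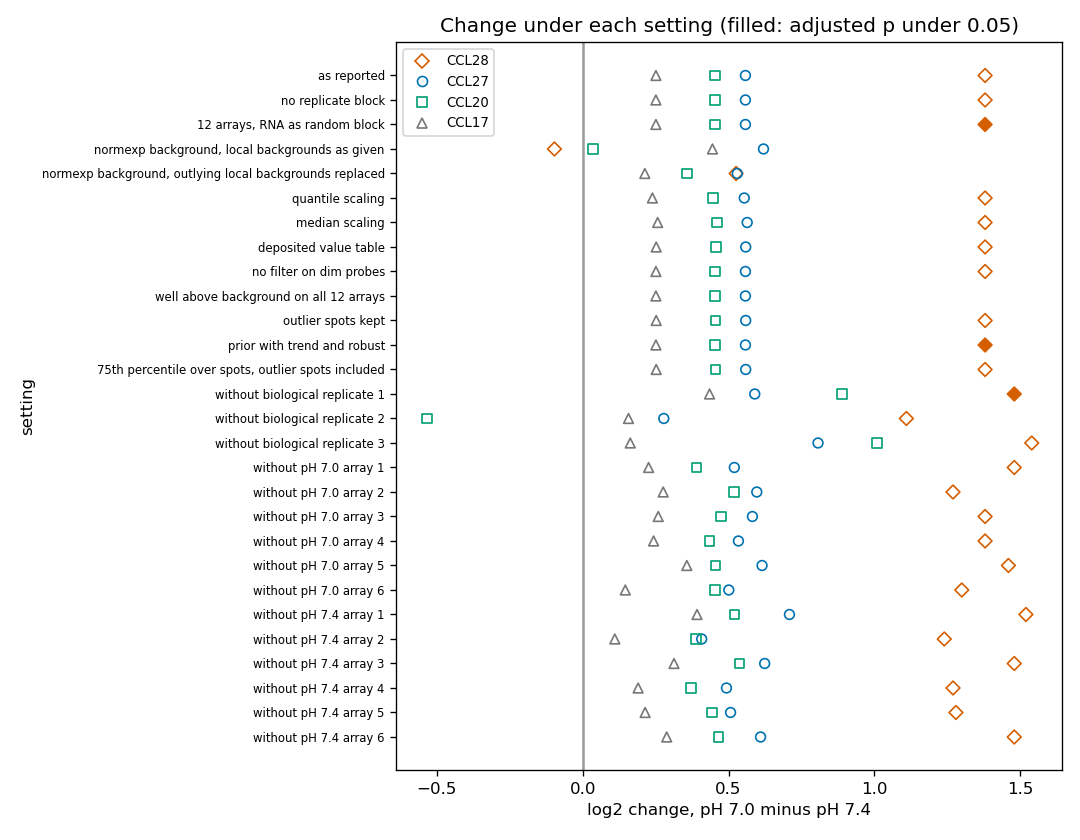
Log2 change of CCL28, CCL27, CCL20 and CCL17 as reported and under 27 other settings, with filled symbols where the limma adjusted p was under 0.05. CCL28 lies between 1.11 and 1.54 except with the normexp corrections and their offset of 50, at 0.526 and -0.097. CCL20 falls to -0.535 without biological replicate 2.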

How the data were processed

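RNA of MDCK cells at pH 7.0 or pH 7.4 carried the dye Cy3 and was measured on single-colour Agilent arrays, 6 per group. Scans were read with Agilent Feature Extraction 10.7.3.1, per the submitters' processing notes. The deposited scanner files hold intensity values per spot, per the file headers: the processed signal, and the medians of the spot and of its surroundings. The deposited value table holds log2 values whose scale and centring the authors do not state. By comparison it equals the scanner values after scaling (below) with each probe's median taken off, at slopes of 1.00. The medians of its columns were, for the pH 7.0 arrays in order, -0.113, -0.150, 0.226, 0.213, -0.226 and 0.0170, and in the controls 0.0197, -0.212, 0.213, 0.0793, -0.0855 and 0.0656. Direction does not apply to it, since it holds no ratio. Columns of other samples numbered 0.

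From the processed signal, control spots were left out, 128 outlier spots were dropped, saturated ones stayed in, log2 values of repeated spots were averaged, and each array's 75th percentile (410 to 944) was subtracted. The 2 arrays of an RNA were averaged. Arrays 1 and 2, 3 and 4, and 5 and 6 of a group were biological replicates 1, 2 and 3, by the numbers in the titles and the shared start of the file names. The difference was fitted with limma 3.58.1 in R 4.3.3 with biological replicate as a block, two-sided, with Benjamini-Hochberg adjustment over 27136 probes. The series' design text pairs the RNAs by extraction date. Deviations from group means correlated at 0.394, 0.637 and 0.807 within the pairs, and at most at 0.255, 0.255 and -0.237 with other replicate numbers. The pairs also share a slide, so this correlation cannot tell extraction from slide. Symbols came from RefSeq accessions without version. The fit was tested on simulated data whose noise was set below that of these data, so that test does not show its power here. Figures used python 3.11.15 and matplotlib 3.10.9.

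The chemokines, gene lists, naming rule and alternatives were chosen with earlier results of these data known. The rule named every member probe, the 3 tested genes of lowest p in each related list and the 3 genes most like each measurable member. The number of arrays limits the precision. No sequence was available for these probes or genes, so none is shown and the promoter motifs listed for searching were not used here.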

Additional observations from a re-analysis of the deposited data

How the results depend on the processing

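CCL17 and CCL27 kept their direction and stayed above the threshold of adjusted p under all 27 alternatives run for them, at 0.11 to 0.445 and 0.278 to 0.807 on the log2 scale. CCL28 kept its direction in 25 of 26 alternatives and passed in 3: with the 12 arrays fitted singly and the RNA as a random block (adjusted p = 0.0156), with a prior fitted with trend and robust (0.0476) and without biological replicate 1 (0.0238). In the random block fit the consensus correlation of duplicate arrays was 0.164, so duplicate arrays of an RNA counted almost as separate replicates. Over the alternatives its adjusted p ran from 0.0156 to 1. It reversed to -0.097 under normexp with local backgrounds as given, a setting that moved the median change of all tested probes to -0.19. It could not be fitted where all 12 arrays had to be above background. CCL20 reversed without biological replicate 2, and leaving out replicates and arrays in turn gave -0.535 to 1.01.

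The count of all probes called at an adjusted p under 0.05, 0 as reported (3324 at an unadjusted p under 0.05), was 690 with the RNA as a random block, 14 under normexp as given, 24 with median scaling, 134 with the stricter filter, 192 with trend and robust, and 71 at the looser threshold of 0.10. It was 20 with the 75th percentile taken over spots with outliers included, an alternative chosen after seeing the data, so the count sits at the edge of the threshold. Leaving out replicates or arrays gave 0 to 647: 277 without biological replicate 1, 647 without biological replicate 2, 15 without array 6 of pH 7.0 and 4 without array 1 of pH 7.4. Without biological replicate 2 the SE was 0.364 for each of the 4 tested chemokines, and under normexp as given it was 0.407 to 0.408. For these genes the test there followed the size of the change alone, so those counts are not like the others. The count of member probes called was 1, CCL28, with the random block and with trend and robust, and 0 to 1 on leaving out replicates or arrays. For probes of the 3 related lists, 0 were called as reported. That count was 5 with the random block, 1 under normexp as given, 3 with the stricter filter, 2 with trend and robust, 1 at the looser threshold, and 0 to 6 on leaving out replicates or arrays. The cause of these moves was not tested. Without the replicate block 0 probes were called in any of these counts, and the adjusted p of CCL28 was 1 at the same change of 1.38; pairing is stated in the design. Signal over background limits CCL28, and leaves CCL21, CCL25 and CCL26 without a fold change.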

Other observations

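Under normexp correction with local backgrounds as given, 2 arrays stood apart, pH 7.4 arrays 3 and 4, which are the controls of biological replicate 2. On them, 8 and 3 gene spots had a local background more than 50 above their own median signal, and 0 spots did on the other 10 arrays. The log2 levels of CCL21, CCL25 and CCL26, which were above background nowhere, were -1.07 to -0.60 on those 2 arrays and -4.07 to -2.72 on the other 10. With outlying local backgrounds replaced by the array's median they were -3.73 to -2.68 and -4.09 to -2.72. CCL28 on those 2 arrays was -0.58 and -1.01 with backgrounds as given, and -2.40 and -2.91 after the replacement. The log2 change of -0.097 for CCL28 was fitted with the former levels.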
